A study of Rattus norvegicus with 12 samples.

Results

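The comparison described here sets 4 rat brain samples taken after Buyang Huanwu Decoction (BHD) against 4 brain samples of the same ischaemia model left untreated, which are 8 of the 12 arrays in the study. The members were chosen by sample title alone. Untreated model rats had the middle cerebral artery embolized and were sampled at 7 days. BHD rats had the same embolization and received the decoction, also with a label of 7 days. The other 4 arrays are controls labelled normal, and they enter only the shared estimate of spread and the values given for reference. The labels give the sex as male, in the strain field, and no strain, age, dose or route. The tissue field reads brain, while the descriptions of the model and BHD samples name hippocampus. The series design text places ischaemia in every group, which conflicts with the label normal. The descriptions of all 4 BHD samples carry the number 4 of 4, so replicate numbers were taken from the titles. Most descriptions speak of biological replicates, but none names an animal, so the p-values measure only the spread between these samples.

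BHD is a traditional Chinese herbal formula built around Astragalus root and given after stroke. Circular RNAs are closed loops made by back-splicing, in which the end of a downstream exon is joined to the start of an upstream one. Brain is rich in them, and some bind microRNAs, which are short RNAs that repress messenger RNAs through a seed at their 5′ end. Only a probe that crosses the back-splice junction can separate a circle from the linear transcript of the same exons. The study's title places the comparison within a network of circular RNAs, microRNAs and messenger RNAs.

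Each array held 60148 distinct probes of 60 bases, in 2 classes by name. The 3046 RNO_CIRCpedia probes carry the name of a database of circular RNAs, and the 57102 rclstr probes carry a cluster number. No file pairs a probe with a gene, so probes are given by name and sequence, and the tissue could not be checked against marker genes. RNA was labelled from a T16N2 primer, which starts at runs of A, whereas circular RNA has no A tail. Whether the signal of a CIRCpedia probe came from circular RNA was not tested.

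The sequences below are those of 7 probes that a ranking rule selected among the highest rises and deepest falls of each class, over called probes that were well above background on all 8 arrays and whose BHD and model values did not overlap. Each is written 5′ to 3′ as deposited, with the purines A and G in capitals, because purine content went with the size of the difference, as described further on.
CIRCpedia_5589_15_13, higher: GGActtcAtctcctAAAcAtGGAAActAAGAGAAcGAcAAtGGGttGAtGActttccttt
CIRCpedia_6352_15_19, higher: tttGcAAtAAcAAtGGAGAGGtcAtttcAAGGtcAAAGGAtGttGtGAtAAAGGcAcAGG
CIRCpedia_9914_15_32, lower: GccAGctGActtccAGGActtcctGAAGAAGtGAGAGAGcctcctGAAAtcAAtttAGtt
rclstr_59921_47_23, higher: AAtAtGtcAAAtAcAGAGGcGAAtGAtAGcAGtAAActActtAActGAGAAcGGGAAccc
rclstr_46658_381_20, higher: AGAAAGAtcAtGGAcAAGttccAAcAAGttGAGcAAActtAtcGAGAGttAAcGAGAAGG
rclstr_48448_621_11, lower: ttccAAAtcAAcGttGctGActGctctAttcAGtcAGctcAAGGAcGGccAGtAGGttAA
rclstr_44979_24_14, lower: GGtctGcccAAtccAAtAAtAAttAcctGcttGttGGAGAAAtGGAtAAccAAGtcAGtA

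Before the results, 3 facts of the arrays bear on all of them. All 4 BHD arrays were on slide 2 and all 4 model arrays on slide 1, so the decoction and the slide cannot be told apart. The mean local background around the spots was 19.9 to 20.3 intensity units on BHD arrays and 18.3 to 18.8 on model arrays, with no overlap (exact two-sided permutation p = 0.0286, which is the lowest value this design allows, and 0.114 adjusted over 4 measures). The spike-in (E1A) mean and the 3′ minus 5′ differences of the labelling controls for Gapdh and Pgk1 gave exact permutation p-values of 0.0857, 0.771 and 0.286 between these 8 arrays. BHD replicate 2 stood apart from its group. It differed over 2-fold from the mean of the other 3 BHD arrays at 1665 of 44719 tested probes, against 679 to 786 for the other BHD arrays and 566 to 949 for model arrays, and the main counts are therefore given with and without it.

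**Figure D1:**
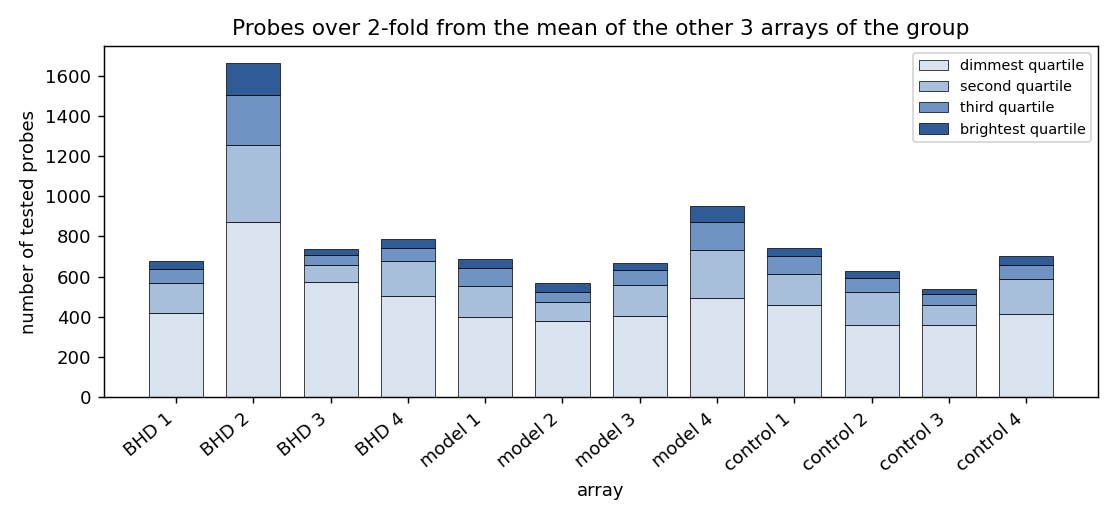
Stacked bars count, for each of the 12 arrays (x axis), the tested probes that lay over 2-fold from the mean of the other 3 arrays of the same group (y axis, number of probes), split by quartile of mean level. BHD replicate 2 has 1665 such probes, of which 872 are in the dimmest quartile and 159 in the brightest, and no other array reaches 950.

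Levels are log2 processed signal minus the array's 75th percentile, and a difference is the BHD mean minus the model mean on that scale. Of 44719 probes tested with limma, 1428 passed a Benjamini-Hochberg adjusted p under 0.05, which is 3.19% of those tested. Of these, 309 were higher after BHD (0.691%) and 1119 lower (2.5%). The classes went opposite ways. Among CIRCpedia probes 75 rose (2.57% of 2915) and 22 fell (0.755%), while among rclstr probes 234 rose (0.56% of 41804) and 1097 fell (2.62%). The shares of the classes that were called were close under this scaling, at 3.33% and 3.18%, from 97 CIRCpedia and 1331 rclstr calls. They moved apart under others. Quantile normalization gave 120 and 1081 calls on the same probes, cyclic loess 132 and 1141, and spike-in centring 91 and 1892. Without BHD replicate 2, 2.88% of all tested probes were called, 0.622% higher and 2.26% lower. In that fit 57 CIRCpedia probes rose (1.96%) and 17 fell (0.583%), and 221 rclstr probes rose (0.529%) and 995 fell (2.38%), so that 2.54% and 2.91% of the classes were called. Of the 1428 probes, 998 passed both ways, which is 69.9% of the calls with all arrays and 77.4% of the 1290 calls without BHD replicate 2, each in the same direction.

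The split of the CIRCpedia calls moved with the centring of the arrays. It stayed mainly upward under every scaling tried, and centring on the spike-in probes gave 52 higher and 39 lower, or 57.1% higher in place of 77.3%. The rclstr calls stayed mainly downward, with 7.51% higher under spike-in centring and 28% under cyclic loess, against 17.6%. Leaving out BHD replicate 1 left 39 CIRCpedia and 666 rclstr calls, leaving out BHD replicate 3 left 45 and 710, and leaving out model replicate 1, 2, 3 or 4 left 51, 52, 63 or 59 CIRCpedia and 661, 812, 871 or 797 rclstr calls.

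Values that do not overlap between 4 BHD and 4 model arrays were found at 10% of all tested probes, at 11.4% of CIRCpedia probes and 9.93% of rclstr probes. By direction, BHD values all lay above the model values at 2.93% of all tested probes (7.48% of CIRCpedia and 2.62% of rclstr probes), and all below at 7.09% (3.88% and 7.32%).

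Dim and bright probes differed in how many were called and in which direction. Tested probes were split into quartiles by their mean level over the 12 arrays. In the dimmest quartile 6.98% of CIRCpedia probes were called, 24 higher and 1 lower. The share fell through 4.64% (35 higher, 9 lower) and 2.24% (15 higher, 9 lower) to 0.743% in the brightest quartile (1 higher, 3 lower). The rclstr probes had a gradient of the same kind in number and were called mainly lower in the 3 dimmer quartiles, from 5.66% called in the dimmest quartile (65 higher, 547 lower) through 4.13% (71 higher, 352 lower) and 1.89% (47 higher, 144 lower) to 0.987% in the brightest (51 higher, 54 lower). The split of the brightest rclstr calls moved with the settings, to 26 higher and 131 lower with spike-in centring, 98 and 152 with the background modelled by normexp, and 39 and 71 without BHD replicate 4. With spike-in centring the CIRCpedia calls were 21 higher and 2 lower in the dimmest quartile, 23 and 13 in the second and 8 and 19 in the third, so that in the third quartile they ran the same way as the rclstr calls.

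Without BHD replicate 2 the same order of shares was seen. The dimmest quartile then held 16 higher and 2 lower CIRCpedia calls and 48 higher and 516 lower rclstr calls. The brightest quartile held 2 higher and 3 lower CIRCpedia calls and 59 higher and 33 lower rclstr calls. With normexp background and 50 added intensity units, in place of the processed signal, the gradient was lost in both classes. The added units by themselves shrink log2 differences of dim probes most. Normexp without them was not run, so the part of each in this loss was not tested. From dimmest to brightest, 1.68%, 3.59%, 3.36% and 2.04% of CIRCpedia probes and 1.9%, 3.63%, 2.75% and 2.35% of rclstr probes were then called. The gradient was also weaker with trend and robust eBayes, where the dimmest and second quartiles were close. The shares were 3.63%, 3.59%, 2.89% and 1.49% of CIRCpedia and 3.64%, 3.81%, 2.35% and 1.62% of rclstr probes. With base composition adjusted, as described further on, they were 2.23%, 3.27%, 1.96% and 0.558% of CIRCpedia probes.

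**Figure D2:**
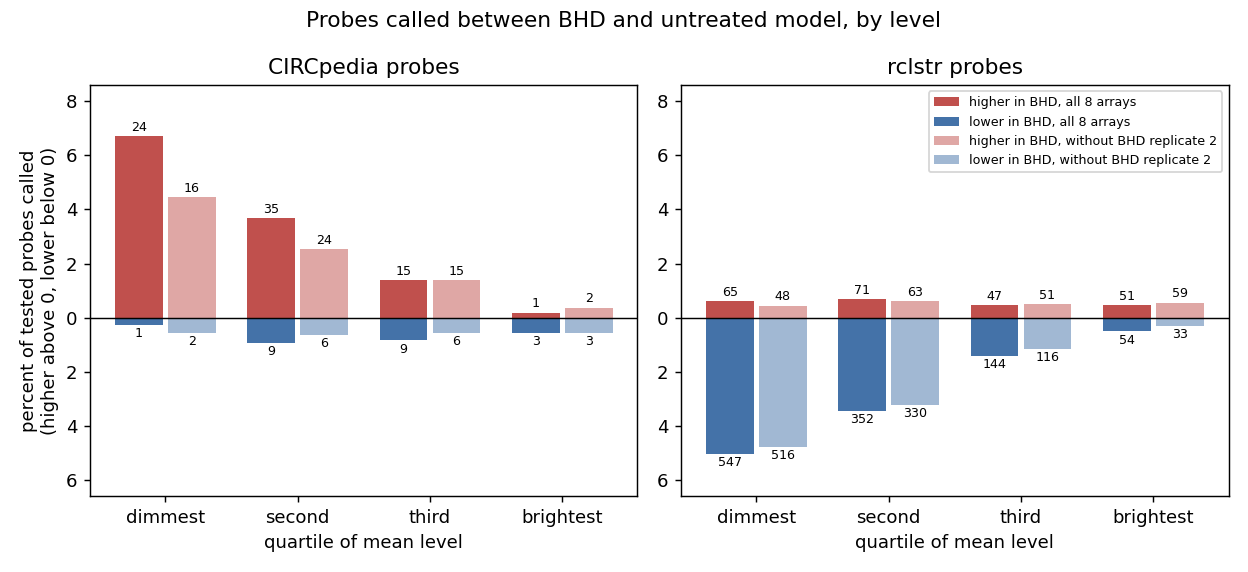
Bars give the percent of tested probes called at an adjusted p under 0.05 (y axis, higher in BHD above 0 and lower below 0) in each quartile of mean level (x axis), for CIRCpedia probes on the left and rclstr probes on the right. Dark bars use all 8 arrays, pale bars leave out BHD replicate 2, and the numbers are counts of probes, from 24 higher among the dimmest CIRCpedia probes and 547 lower among the dimmest rclstr probes to 1 and 54 in the brightest quartile.

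The shift of the dimmest CIRCpedia probes was seen on each BHD array. Their median deviation from the mean of the model arrays was 0.20, 0.30, 0.23 and 0.13 on BHD replicates 1 to 4. On the model arrays, each set against the other 3, it was 0.05, -0.03, -0.09 and 0.10, and on control arrays 0.01 to 0.16. The BHD and model arrays did not overlap in this value, while the BHD and control arrays did. For the dimmest rclstr probes the BHD arrays gave -0.06, -0.02, -0.23 and -0.09 and the model arrays 0.02, -0.07, -0.04 and 0.13, which overlap. Over all 10822 dimmest rclstr probes the median difference was -0.09, and it was 0.000618 with quantile normalization. For the 358 dimmest CIRCpedia probes it was 0.21, with values of 0.29 under quantile normalization, 0.14 under spike-in centring, 0.08 under normexp with quantile normalization and 0.07 under normexp.

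Of the 612 called rclstr probes in the dimmest quartile, 58 that were lower had no BHD array well above background, and 9 that were higher had no such model array. For such probes the size of the change has only a lower bound. Only 392 of the 612 were well above background on all 8 arrays, as were 19 of the 25 CIRCpedia probes called in this quartile. In the other 3 quartiles every called probe was well above background on all 8 arrays. Changes of 2-fold or more were seen at 32 rclstr probes called higher and 228 called lower, of which 24 and 184 were in the dimmest quartile, and at 3 CIRCpedia probes called higher and 1 called lower. Without BHD replicate 2 these counts were 48 and 244 rclstr probes and 1 and 1 CIRCpedia probes. Where detection on all 8 arrays was required and quartiles were drawn anew, 52 of the dimmest rclstr probes were called higher and 450 lower.

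RNO_CIRCpedia_5589_15_13, of no known gene here, had levels of -2.63, -2.99, -2.65 and -2.68 on model replicates 1 to 4 and of -1.85, -2.01, -1.85 and -1.97 on BHD replicates 1 to 4. Every BHD value lay above every model value, and the control arrays at -2.80 to -2.68 lay among the model arrays. The probe rose by 0.82 ± 0.09 (SE, n = 4 against 4; limma, adjusted p = 0.0016). It was also called without BHD replicate 2, at 0.85, and the rise was 0.46 with normexp background.

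RNO_CIRCpedia_6352_15_19 had levels of -2.92, -2.92, -2.56 and -2.68 on the model arrays and of -1.86, -2.12, -1.87 and -1.98 on the BHD arrays. The groups did not overlap, and the controls lay at -2.81 to -2.50. The difference was 0.81 ± 0.11 (SE; limma, adjusted p = 0.00416), and 0.46 with normexp. Both of these probes kept their call under every alternative scaling, filter, spread estimate and left-out array at the same threshold. The fit with the replicate number as a block, under which 0 probes were called (limma; 7392 at an unadjusted p under 0.05), was the exception, here and for every probe below of which the same is said.

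RNO_CIRCpedia_9914_15_32 had model levels of -1.22, -1.03, -1.20 and -1.63 and BHD levels of -1.97, -1.73, -1.98 and -2.10. Model replicate 4 came close to the highest BHD value, and the controls at -1.64 to -1.37 lay between most of the values of both groups. It fell by 0.67 ± 0.13 (SE; limma, adjusted p = 0.0188). The call was lost when only the 8 arrays were fitted and when model replicate 1, model replicate 3, BHD replicate 1 or BHD replicate 3 was left out, but not without BHD replicate 2.

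**Figure D3:**
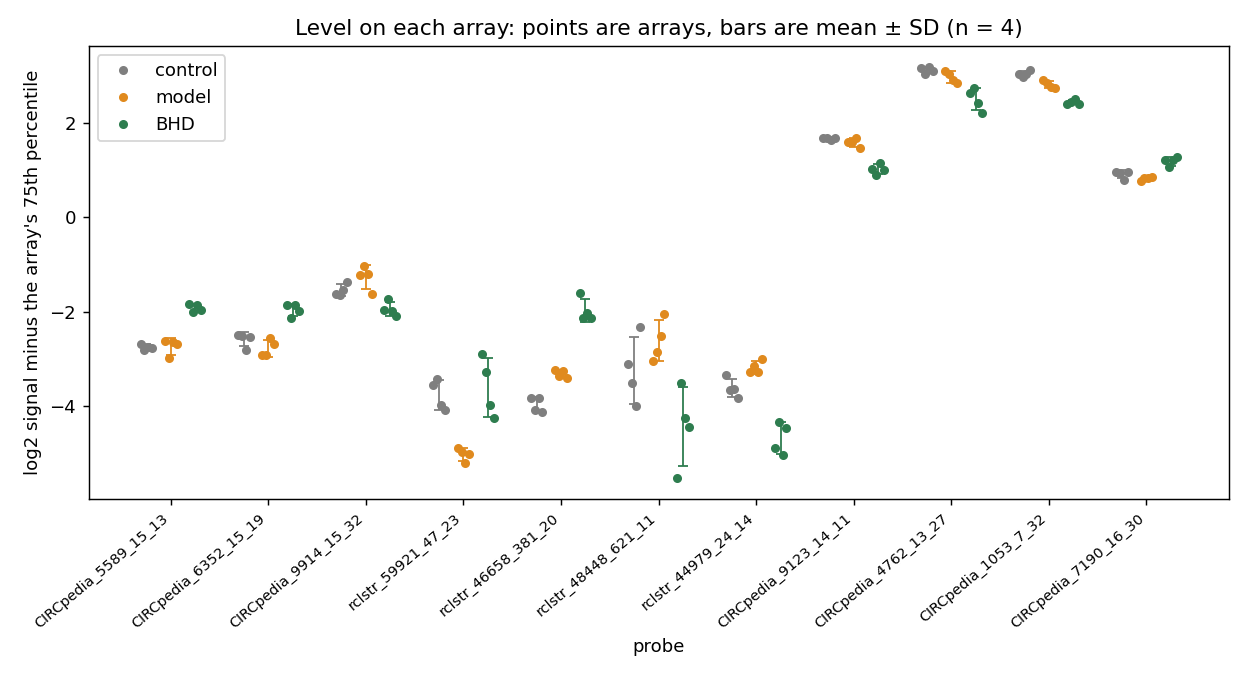
Points give the level of each array (y axis, log2 signal minus the array's 75th percentile) for 11 probes (x axis), coloured by group, and the bars give the mean ± SD of 4 arrays. The first 7 were selected by the ranking rule and the last 4 are the CIRCpedia probes called in the brightest quartile; BHD and model points are separate at every one.

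Only 4 CIRCpedia probes were called in the brightest quartile, and they are named here after their values were seen. RNO_CIRCpedia_9123_14_11 had model levels of 1.58, 1.58, 1.68 and 1.46 and BHD levels of 1.03, 0.90, 1.14 and 1.00. It fell by 0.56 ± 0.07 (SE; limma, adjusted p = 0.00341), and its controls at 1.63 to 1.68 lay at or above most model values. RNO_CIRCpedia_1053_7_32 had model levels of 2.90, 2.83, 2.76 and 2.74 and BHD levels of 2.40, 2.43, 2.49 and 2.40, a fall of 0.38 ± 0.06 (SE; limma, adjusted p = 0.0112). The calls of these 2 probes were kept under every alternative except the block. RNO_CIRCpedia_7190_16_30 was the only bright probe of the class called higher, with model levels of 0.76, 0.82, 0.82 and 0.86, BHD levels of 1.20, 1.05, 1.21 and 1.26, and a difference of 0.37 ± 0.07 (SE; limma, adjusted p = 0.018). It lost its call with spike-in centring, with only the 8 arrays, and without model replicate 1, BHD replicate 1 or BHD replicate 3.

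The fourth, RNO_CIRCpedia_4762_13_27, shows what a CIRCpedia probe holds. Its first part is shared with one other CIRCpedia probe on the array and its last part with another. The 3 sequences follow, with the run of 30 bases that the first pair shares in capitals.
CIRCpedia_4762_13_27: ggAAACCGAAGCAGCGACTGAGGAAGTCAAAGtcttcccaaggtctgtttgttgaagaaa
CIRCpedia_4763_15_14: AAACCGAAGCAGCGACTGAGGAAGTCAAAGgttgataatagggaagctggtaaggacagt
The second pair shares the other end, again over 30 bases in capitals.
CIRCpedia_4762_13_27: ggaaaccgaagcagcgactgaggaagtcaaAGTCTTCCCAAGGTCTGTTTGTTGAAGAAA
CIRCpedia_6262_16_1007: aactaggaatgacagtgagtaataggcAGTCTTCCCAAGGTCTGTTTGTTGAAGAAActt
As background, junction probes of circles that use one exon end in common and differ in the partner exon have this layout.

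The 3 probes did not have the same values. RNO_CIRCpedia_4762_13_27 had model levels of 3.09, 3.04, 2.91 and 2.83 and BHD levels of 2.63, 2.74, 2.41 and 2.21, a fall of 0.47 ± 0.11 (SE; limma, adjusted p = 0.046). RNO_CIRCpedia_6262_16_1007, which shares the last part, had model levels of 1.76, 1.73, 1.501 and 1.49 and BHD levels of 1.35, 1.53, 1.19 and 0.91, a difference of -0.37 that did not pass (limma, adjusted p = 0.135). RNO_CIRCpedia_4763_15_14, which shares the first part, had model levels of -2.07, -1.73, -2.05 and -2.03 and BHD levels of -1.87, -1.94, -2.11 and -2.003, a difference of -0.01 (limma, adjusted p = 0.974). The groups overlap at both partners. The call at RNO_CIRCpedia_4762_13_27 was itself lost without any one of the model or control arrays, without BHD replicate 1, 3 or 4, with only the 8 arrays and under 6 of the other alternatives.

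RNO_CIRCpedia_9123_14_11 also has a partner, shown with the shared 30 bases in capitals because both probes can be read against each other.
CIRCpedia_9123_14_11: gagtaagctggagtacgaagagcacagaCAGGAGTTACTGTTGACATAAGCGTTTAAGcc
CIRCpedia_6259_12_34: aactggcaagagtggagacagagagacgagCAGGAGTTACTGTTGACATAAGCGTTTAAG
RNO_CIRCpedia_6259_12_34 had model levels of 0.58, 0.66, 0.74 and 0.35 and BHD levels of 0.36, 0.29, 0.40 and 0.33, a difference of -0.23 (limma, adjusted p = 0.193). It lay on the same side as its partner, at a smaller size, and did not pass.

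Sharing of this kind was common in the class. Among pairs of CIRCpedia probes with a common run of 30 or more bases on the same strand, 411 in number, the median run was 31 bases and 9% of pairs shared 40 or more. Among the 652 such pairs of rclstr probes the median run was 43 bases and 62% shared 40 or more. In the 381 CIRCpedia pairs with both members tested, the differences correlated across pairs at r = 0.48, against 0.74 in 542 rclstr pairs and 0.46 in 253 pairs of a CIRCpedia with an rclstr probe. These are descriptions, since the members of a pair share target bases as well as arrays. In 31 CIRCpedia pairs at least 1 member was called, both were called in 2 of them, and the members had the same sign in 27. In 243 pairs of tested rclstr probes on opposite strands r was 0.31.

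Of the rclstr probes, rclstr_59921_47_23 had the highest rise under the rule, with model levels of -4.88, -4.97, -5.20 and -5.01 and BHD levels of -2.89, -3.28, -3.98 and -4.25. Its BHD arrays spread over more than 2-fold but stayed above every model array, and its controls at -4.07 to -3.43 lay within the BHD range. The difference was 1.41 ± 0.26 (SE; limma, adjusted p = 0.017). rclstr_46658_381_20 was tighter, with model levels of -3.23, -3.36, -3.25 and -3.41, BHD levels of -1.61, -2.13, -2.03 and -2.14, and a rise of 1.34 ± 0.12 (SE; limma, adjusted p = 0.00114). Its controls, at -4.11 to -3.82, lay below both groups. Both kept their calls under every alternative except the block, but with normexp background the rises were 0.45 and 0.69.

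The deepest fall under the rule, rclstr_48448_621_11, was among the least stable. It had model levels of -3.05, -2.86, -2.51 and -2.05 and BHD levels of -5.52, -3.51, -4.25 and -4.44, so the BHD arrays alone spanned about 2 log2 units. It fell by 1.82 ± 0.43 (SE; limma, adjusted p = 0.0451) and lost its call without any one of the model arrays, without control replicate 1 or 2, without BHD replicate 1, 3 or 4, with only the 8 arrays and under 6 of the other alternatives. With normexp the difference was -0.67. rclstr_44979_24_14 had model levels of -3.28, -3.15, -3.28 and -3.01 and BHD levels of -4.88, -4.33, -5.04 and -4.46. It fell by 1.496 ± 0.16 (SE; limma, adjusted p = 0.0016), lay below all controls, which were at -3.82 to -3.34, and kept its call under every alternative except the block, with a difference of -0.48 under normexp.

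A small set of rclstr probes was printed on the array at 10 or 11 places, which gives a direct measure of spot error. Among the 110 of these 154 probes that were tested, the median SD between spots of one array was 0.06, and the median SD between arrays was 0.13 in the model and 0.13 in the BHD group. In the dimmest quartile (23 probes) the SD between spots was 0.20 and that between arrays 0.24 in both groups. The spread between arrays, here of means over 10 or 11 spots, was thus larger than the spread between single spots. Most probes on the array have 1 spot, and for them the error between spots is not averaged down. Of the 110 probes 5 were called (4.55%, against 3.18% of all rclstr probes), 4 lower and 1 higher, which is near that background, and they are named after their values were seen.

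rclstr_43940_234_9, with 10 spots, had model levels of -3.94, -3.87, -3.96 and -3.87 and BHD levels of -4.74, -4.83, -4.78 and -4.58. The gap between the groups was wider than the range within either, and the controls at -4.09 to -3.94 lay beside the model arrays. It fell by 0.82 ± 0.07 (SE; limma, adjusted p = 0.000969), and the difference was -0.21 with normexp background. The others were rclstr_29780_49_16 at -0.78, rclstr_40634_671_16 at -0.72 and rclstr_41986_624_10 at -0.46, all lower, and rclstr_34121_1146_10 at 0.46, higher. Without BHD replicate 2 all 5 were still called. rclstr_40634_671_16 lost its call under 6 alternatives beside the block, among them normexp (difference -0.12; limma, adjusted p = 0.216), the deposited values, and leaving out model replicate 1 or BHD replicate 3. rclstr_34121_1146_10 lost its call under 4, which were normexp (difference 0.17; limma, adjusted p = 0.112), only the 8 arrays, trend and robust eBayes, and leaving out BHD replicate 1. With normexp all 5 differences were smaller by 2.16 to 5.84 times, in a setting whose 50 added intensity units by themselves shrink differences of dim probes.

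The difference between the groups was graded with the base composition of the probe in the dimmer quartiles. CIRCpedia probes had a median of 32 purines in 60 bases and rclstr probes 30. CIRCpedia probes called higher had a median of 35 and rclstr probes called lower a median of 27. In the dimmest quartile the median difference was -0.28 at probes with up to 24 purines, -0.17 at 25 to 28, -0.07 at 29 to 32, 0.02 at 33 to 36 and 0.09 at 37 or more. In the second quartile it ran from -0.11 to 0.03. In the brightest quartile it was -0.00252 at up to 24 purines and -0.03 at 37 or more, with no such gradient. Of the dimmest probes 9.26% with up to 24 purines were called lower and 0.226% higher, against 1.4% and 2.37% with 37 or more.

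The gradient was present on each BHD array. In the dimmest quartile, 10 more purines went with a level higher by 0.29, 0.23, 0.29 and 0.19 on BHD replicates 1 to 4, relative to the model mean. The same slope was 0.03, -0.03, -0.02 and 0.03 on model arrays, each against the other 3, and -0.02, 0.10, 0.10 and 0.13 on control arrays. BHD arrays lay above the arrays of both other groups, which shared slide 1. In the brightest quartile the slopes of the 12 arrays ran from -0.03 to 0.03. Decoction and slide cannot be told apart in this pattern.

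**Figure D4:**
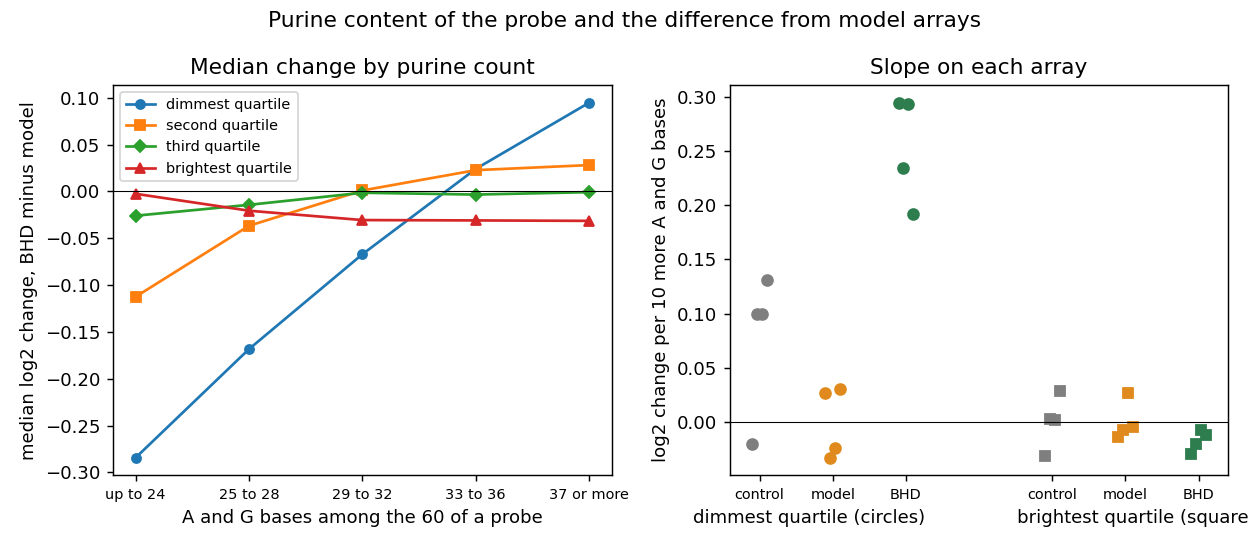
Left, the median difference (y axis, log2, BHD minus model) of tested probes grouped by their number of A and G bases (x axis), with a line for each quartile of mean level; it runs from -0.28 to 0.09 in the dimmest quartile and is flat in the brightest. Right, the slope per 10 purines on each array (points) by group, in the dimmest quartile (circles, 0.19 to 0.29 on BHD arrays) and in the brightest (squares).

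Pooled over all quartiles of level, the calls of the 2 classes ran opposite ways at 29 to 32 and at 33 to 36 purines. Within quartiles this held in the 2 dimmer ones. In the third quartile 5 CIRCpedia probes with 29 to 32 purines were called higher and 5 lower. There, 16 rclstr probes with 33 to 36 were called higher and 14 lower. In the brightest quartile 0 CIRCpedia probes were called in either bin. Among probes with 29 to 32 purines 22 CIRCpedia probes were called higher (2.32%) and 8 lower (0.845%), and 71 rclstr probes higher (0.517%) and 284 lower (2.07%). Among those with 33 to 36 the counts were 18 and 3 CIRCpedia probes (2.01% and 0.335%) and 68 and 123 rclstr probes (0.742% and 1.34%). At 37 or more, 30 CIRCpedia probes were higher (5.81%) and 3 lower (0.581%), while the rclstr calls were even at 29 and 29 (0.79% each). At lower purine content the rclstr calls were mainly lower, while the CIRCpedia calls were too few to show a direction. At 25 to 28, 4 CIRCpedia probes were higher (0.891%) and 5 lower (1.11%). The rclstr counts there were 47 higher (0.455%) and 372 lower (3.6%). At up to 24 they were 19 (0.387%) and 289 (5.88%), against 1 (0.926%) and 3 (2.78%) CIRCpedia probes. With each array's levels adjusted for base composition within bins of level, an alternative chosen after seeing the data, 45 CIRCpedia probes were called higher and 18 lower, and 182 rclstr probes higher and 831 lower. In the dimmest quartile that adjustment left 7 CIRCpedia probes higher and 1 lower, in place of 24 and 1, and moved their median difference from 0.21 to 0.08.

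To place rclstr probes in the genome, all probes were matched to the windows from 250 bases before to 50 bases after 33469 RefSeq gene starts of rat build GRCr8. This was chosen after seeing the data. At least 30 bases at a window's edge, or all 60 within it, matched for 1051 rclstr probes and for no CIRCpedia probe, and 573 of them were tested. A probe in such a window measures RNA from that stretch and is not a measure of the gene's messenger RNA. Of the 573, 41 were called lower and 2 higher (7.16% lower, against 2.62% of all rclstr probes).

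Upstream of the start on the gene's own strand lay 26 of the 41 placed probes called lower, and 247 of the 573 tested. Of 247 tested sense probes that end before the start, 26 were lower (10.5%) and 0 higher by limma, with a median difference of -0.18. At an adjusted p under 0.1, 38 were lower and 3 higher. Of 152 tested antisense probes in the same stretch 4 were lower (2.63%) and 0 higher, with a median of -0.01. Sense probes that span the start gave 6 lower (8.11%) and 1 higher of 74. Those that begin after it gave 5 lower (6.58%) and 1 higher of 76. Each of these sense shares was above the 2.62% of all rclstr probes. Sense and antisense upstream probes differed in level, with medians of -3.23 and -2.55. Within quartiles, from dimmest to brightest, 11%, 15.2%, 7.14% and 0% of the upstream sense probes were lower, and 1.79%, 4.88%, 3.85% and 0% of the upstream antisense probes, against 5.05%, 3.44%, 1.42% and 0.507% of all rclstr probes. The difference between strands was not tested. Without BHD replicate 2 the upstream sense probes gave 20 lower and 1 higher, and with base composition adjusted 18 lower and 0 higher. Leaving out BHD replicate 3 left 12 lower, leaving out BHD replicate 1, model replicate 2 or model replicate 3 left 14 each, and leaving out model replicate 1 or 4 left 15 and 16. With normexp there were 14 lower and 2 higher, and 20 lower when every tested probe had to be detected on each of the 8 arrays compared. For scale, all rclstr probes gave 1097 lower in the main fit, 1970 under 0.1, 995 without BHD replicate 2 and 831 with base composition adjusted. They gave 563 lower without BHD replicate 3, 564 without BHD replicate 1, and 546, 682, 699 and 651 without model replicates 1 to 4. With normexp they gave 818 lower, and with detection on all 8 arrays 907.

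**Figure D5:**
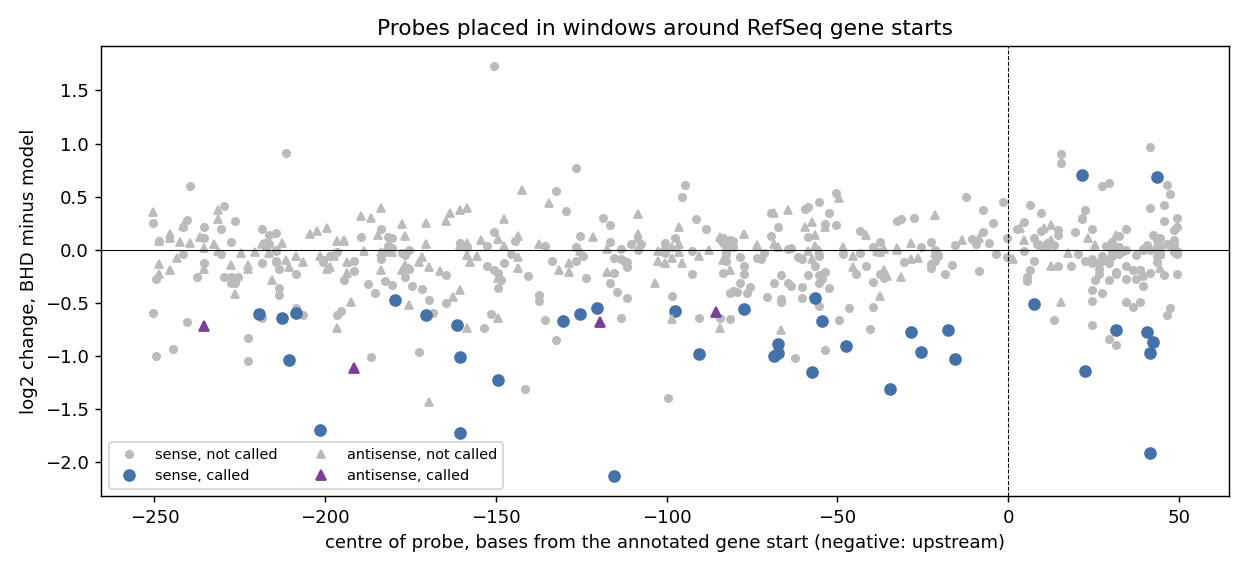
Each point is a tested rclstr probe matched to a window around a RefSeq gene start, by the distance of its centre from the start (x axis, bases, upstream negative) and its difference (y axis, log2, BHD minus model); circles are sense and triangles antisense to the gene, and coloured points are called. All called probes upstream of the start lie below 0, and 2 called sense probes at and after the start lie above it.

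The brightest called probes of this set are given with their sequences, purines in capitals, because they had the highest levels among the placed probes that were called.
rclstr_21893_676_8: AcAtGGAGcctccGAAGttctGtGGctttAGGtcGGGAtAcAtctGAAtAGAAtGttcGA
rclstr_40093_13_16: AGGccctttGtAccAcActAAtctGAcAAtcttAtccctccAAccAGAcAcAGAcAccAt
The first lies at chr4:84416071-84416130 (GRCr8), 97 to 38 bases before the start of Cpvl, which encodes a serine carboxypeptidase and is on the minus strand. It had model levels of 0.31, 0.17, 0.07 and -0.05, BHD levels of -0.99, -0.64, -0.87 and -0.89, and control levels of 0.06 to 0.32. It fell by 0.97 ± 0.10 (SE; limma, adjusted p = 0.0016). The BHD arrays lay below all 8 others.

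The second, at chr20:1459250-1459309, runs across the start of Or2h2, an olfactory receptor gene on the plus strand, with 58 bases before it. It had model levels of 0.75, 0.80, 0.57 and 0.94 and BHD levels of -0.00, -0.17, 0.01 and 0.16, a fall of 0.77 ± 0.11 (SE; limma, adjusted p = 0.00453). Its controls, at 0.65 to 0.99, lay among the model arrays. Both probes kept their calls under every alternative except the block.

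Other named loci were dimmer. At Birc7, which encodes an inhibitor of apoptosis, 48 bases of rclstr_37873_2_26 matched just after the start, with model levels of -1.82, -2.15, -2.05 and -1.96, BHD levels of -2.59, -2.74, -2.79 and -2.90, and a fall of 0.76 (limma, adjusted p = 0.00282). At Slc35b3, a transporter of the sulphate donor into the Golgi, rclstr_12037_15_11 ended 140 bases before the start and fell by 0.61 (limma, adjusted p = 0.0143). Antisense to Mok, a protein kinase gene, rclstr_23676_9_7 fell by 0.68 (limma, adjusted p = 0.00512). These 3 kept their calls under every alternative except the block.

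Upstream of Silc1, a long non-coding RNA known for its rise after nerve injury, rclstr_54945_0_20 had model levels of -2.09, -2.38, -2.15 and -2.33 and BHD levels of -2.69, -3.08, -3.07 and -2.69. It fell by 0.64 (limma, adjusted p = 0.0117), and the call was lost with base composition adjusted (adjusted p = 0.0715); the probe holds 19 purines. Upstream of Slc11a2, the divalent metal transporter that carries iron, rclstr_25033_151_14 fell by 0.71 (limma, adjusted p = 0.0289), and this call was lost under 7 alternatives. The deepest fall, upstream of the glucuronosyltransferase gene Ugt2b1, was at rclstr_24991_184_9, which was well above background on all 4 model arrays and on no BHD array. Its model levels were -4.78, -4.55, -4.78 and -4.91 and its BHD levels -8.10, -6.34, -6.45 and -6.66. It was at least 1.97-fold lower, since its BHD values lie under the detection limit. No p is given, since the probe entered the test only through the model group, where it is high.

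Over all 43 called probes in such windows, 40 had a window of 1 gene symbol only. Of the 43, 33 were also called without BHD replicate 2, 28 with base composition adjusted, 22 with normexp background, and 15 under every alternative at the same threshold except the block. With normexp all 43 differences were smaller, 38 of them by over 1.5 times. The 50 intensity units added in that setting by themselves make differences of dim probes smaller. Of the 43, 34 were well above background on all 8 arrays compared. Others, among them those at Ugt2b1, Cdyl, Glrx2 and LOC134480701, were on no BHD array and entered the test only through the model group. The sizes of such falls have only a lower bound. The fitted falls ran from -2.13, which is the Ugt2b1 probe, to -0.46, and no alternative turned the sign of any of the 43.

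Both placed probes that rose lay on the sense strand. rclstr_54146_7_8 matched over 36 bases from 14 bases after the start of Eif4a1, the RNA helicase of translation initiation, and rose by 0.68 (limma, adjusted p = 0.0201). Its model levels were -4.25, -3.90, -4.09 and -3.67 and its BHD levels -3.18, -3.46, -3.22 and -3.33. The call was lost without model replicate 1 or 3, without BHD replicate 1 or 3 and with base composition adjusted. The other, rclstr_65193_8_22 at the unnamed gene LOC134480734, rose by 0.71 (limma, adjusted p = 0.00591).

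Of all 60148 probes, 6 matched whole within a RefSeq microRNA hairpin, and 3 of them were tested. A hairpin is the folded precursor from which a mature microRNA is cut, and a long probe with this primer reads the precursor transcript and not the mature RNA. The 2 tested probes listed as sense to their hairpin are shown with the mature arm that lies whole within them in capitals.
rclstr_53789_185_16, Mir142: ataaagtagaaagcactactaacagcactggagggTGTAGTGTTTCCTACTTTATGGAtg
rclstr_55612_113_19, Mir22: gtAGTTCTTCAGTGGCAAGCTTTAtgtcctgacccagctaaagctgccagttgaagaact

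The arm in the first is miR-142-3p, known from blood and immune cells, and in the second miR-22-5p. rclstr_53789_185_16 lies at chr10:73055120-73055179 (GRCr8, plus strand). It was well above background on no control array, where it read -7.19 to -6.58, and on all 8 others, with model levels of -4.66, -4.93, -4.71 and -5.09 and BHD levels of -3.80, -4.48, -4.71 and -4.04. The difference between BHD and model was 0.59 ± 0.20 (SE) and did not pass (limma, adjusted p = 0.147), and the groups overlap at BHD replicate 3. rclstr_55612_113_19, at chr10:60805347-60805406 on the plus strand, had model levels of -0.18, 0.16, 0.29 and -0.23 and BHD levels of 0.33, 0.20, 0.28 and 0.33, a difference of 0.27 ± 0.11 that did not pass (SE; limma, adjusted p = 0.238). The other tested probe, rclstr_52572_18_24, matched Mir3074 in antisense and differed by 0.14 (limma, adjusted p = 0.501). Each probe is listed with 1 hairpin only, and whether this one lies in sense to another hairpin there is not described.

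Since circular RNAs are often discussed as binders of microRNAs, CIRCpedia probes were searched, as deposited and on that strand alone, for the 7-letter complement of the seed (bases 2 to 8) of 17 rat microRNAs known in brain or in immune cells, a list chosen after seeing the data that includes miR-7a-5p, miR-9a-5p, miR-21-5p, miR-132-3p, miR-142-3p, miR-146a-5p and miR-155-5p. Any of the 17 sites lay in 8.16% of tested CIRCpedia and 7.48% of tested rclstr probes. A site lay in 4 of the 75 CIRCpedia probes called higher (5.33%) and in 3 of the 22 called lower (13.6%). The median difference was 0.02 with a site and 0.03 without. The site of miR-7a-5p, GTCTTCC, lay in 0.858% of tested CIRCpedia probes and in RNO_CIRCpedia_4762_13_27, described above. A match in a probe is a match of letters and not a binding site, and 60 bases around a junction are a small part of any circle.

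Position on the array was also examined. In 6 bands of rows the share of single-spot probes called was 2.65%, 3.63%, 4.07%, 3.35%, 3.14% and 2.32%, with median differences between -0.03 and -0.01.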

How the data were processed

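Total RNA of 12 samples was primed with T16N2, reverse transcribed and labelled with Cy3, and 1 Agilent one-colour array was used for each, per the labels' protocols. The scans were quantified in Agilent Feature Extraction, version 10.7.1.1 in the submitters' processing notes. The deposited scanner files hold processed spot intensity, already background-corrected per the file headers, raw mean and background intensity, and other columns of 0 or 1 flags. The deposited value table holds log2 values made by the authors from the same arrays, read here as quantile normalized, and served as an alternative.

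Outlier spots were left out, no spot was saturated, spots of a probe were averaged as log2 processed signal, less the 75th percentile of the array. The tested probes (44719) were those that all arrays of 1 or more groups showed well above background. limma 3.58.1 in R 4.3.3 was fitted with 1 mean per group over all 12 arrays, with Benjamini-Hochberg adjustment over all tested probes. The fit was also run on simulated data with independent noise and no slide effect, which cannot test the calls against the slide. The 4 arrays per group limit the precision. The normexp alternatives modelled the background from the raw intensities and then added 50 intensity units to each spot. A bound ("at least") sets the bright group's mean against, on each dim array, the higher of the probe's own level and the lowest level well above background there.

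The members, rules and lists were chosen with earlier results of these data known. Probes were named by rank of the fitted difference, 2 rises and 2 falls per class, of which 1 is not reported here; brightest-quartile CIRCpedia probes, repeated probes and placed loci were added after their values were seen. Cell type markers and gene lists could not be run because the files pair no probe with a gene. Replicate numbers were not taken to pair BHD and model samples in the main fit. The deviations of same-numbered samples correlated at -0.11, 0.24, 0.19 and 0.21, against means of 0.02, -0.06, -0.06 and -0.08 with the other model samples. The numbers also match the position of the arrays in their row on the slide. Promoter windows and hairpins came from RefSeq (GRCr8). Permutation tests used scipy 1.17.1.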

Additional observations from a re-analysis of the deposited data

Results flagged for a closer look

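In 86 sets of 4 arrays whose values are reported above, 6 held a value far from the other 3, by a test that chance meets in about 1 of 20 such sets. BHD replicate 2 had 1665 probes over 2-fold from the mean of the other BHD arrays, and the next array of the group had 786. BHD replicate 1 had a 3′ minus 5′ difference of 6.594 for the Pgk1 labelling control, and the next was 6.383. Model replicate 2 read -2.99 at RNO_CIRCpedia_5589_15_13, below the next at -2.675, and the rise of that probe was kept when this array was left out. Control replicate 3 read -2.809 at RNO_CIRCpedia_6352_15_19, with the next at -2.528, and 0.782 at RNO_CIRCpedia_7190_16_30, with the next at 0.943. Control replicate 4 had 76.034% of probes well above background, and the next control array 76.874%.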

How the results depend on the processing

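Counts here are of CIRCpedia and rclstr probes called, against 97 and 1331. They were 64 and 876 with no filter on dim probes (more probes tested), 46 and 824 with only the 8 arrays (fewer arrays), 23 and 302 at an adjusted p under 0.01, 177 and 2469 under 0.1, and 31 and 885 with a change of at least 1.5-fold as well. With base composition adjusted, chosen after seeing the data, 63 and 1013 were called. Leaving out 1 array gave 39 to 94 and 661 to 1393.

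The replicate number as a block gave 0 and 0, also 0 in each quartile by limma, with the smallest adjusted p at 0.055 and 418 and 6974 probes at an unadjusted p under 0.05 (493 and 7147 without it). The replicate number was also the position of the array in its row on both slides, so this block is one of array position as well. Same-numbered BHD and model samples deviated together in part, at r of -0.11, 0.24, 0.19 and 0.21 for replicates 1 to 4. The mean r of each BHD sample with the other model samples was 0.02, -0.06, -0.06 and -0.08. Whether position took part in the calls was not tested.

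Of the CIRCpedia calls 77.3% were higher. This was 85.8% with quantile normalization and with the deposited values, 85.6% with cyclic loess, 57.1% with spike-in centring, 87% with only the 8 arrays and also under 0.01, 90.3% with 1.5-fold, and 76.3% to 89.7% with 1 array left out. Of the rclstr calls 17.6% were higher. This was 25.7% with quantile normalization and with the deposited values, 7.51% with spike-in centring, 28% with cyclic loess, 26% with normexp, 29.4% with normexp and quantile normalization, 15.5% with no filter, 14% with only the 8 arrays, 20.2% under 0.1, 13.8% with 1.5-fold, and 15.1% to 20.7% with 1 array left out. No alternative turned the main direction of either class, where any probe was called.

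The 612 calls among the dimmest rclstr probes became 206 with normexp, 273 with normexp and quantile normalization, 394 with trend and robust eBayes, 120 under 0.01, 1072 under 0.1, and 308 to 633 with 1 array left out. The 105 among the brightest became 250 with normexp, 368 with normexp and quantile normalization, 39 with only the 8 arrays, 172 with trend and robust eBayes, 27 under 0.01, 271 under 0.1, 19 with 1.5-fold, and 47 to 110 with 1 array left out.

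With no filter the quartiles were drawn anew over all 60148 probes, and the dimmest then held 14914 rclstr and 123 CIRCpedia probes, a different set, of which 91 and 4 were called. The 25 among the dimmest CIRCpedia probes became 40 with cyclic loess, 6 with normexp, 13 with trend and robust eBayes, 5 under 0.01, 47 under 0.1, 16 with 1.5-fold, 8 with base composition adjusted, and 12 to 26 with 1 array left out. The 4 among the brightest became 8 with quantile normalization, the deposited values and trend and robust eBayes, 9 with cyclic loess, 11 with normexp, 21 with normexp and quantile normalization, 7 with array weights, 2 with only the 8 arrays, 1 under 0.01, 16 under 0.1, 0 with 1.5-fold (66 at an unadjusted p under 0.05), and 2 to 6 with 1 array left out. Where no construction is given in brackets, the cause was not tested. The 50 intensity units added in the normexp settings are part of their construction. For 62 named probes, 1312 of 1788 values under the alternatives kept the direction and the side of the threshold, 476 kept only the direction and 0 turned it. The partner probes that share bases are not among the 62. Of these, RNO_CIRCpedia_4763_15_14, with a difference of -0.01, turned its direction under 5 alternatives. Signal near background limits the dimmest quartile most.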
